A study of Mus musculus with 6 samples.

Results

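The Myc, Max and Mxd network was taken as 10 genes, Myc, Mycn, Mycl1 (now named Mycl), Max, Mxd1, Mxd3, Mxd4, Mxi1, Mnt and Mlx, and its members were found as all array probes that carry one of these gene names. The array held 12 such probes among 55681, with a second probe for Mxd1 and for Mxd4. Of the 10 genes, 9 had a tested probe, among 25613 genes with one on the whole array. The samples were LSC GFP+ and LSC GFP- cells of the developing mouse prostate, 3 independent ones of each. All samples came from untreated male FVB/N mice at 6 days of age that carried the Tg 11.5kb-GFP transgene, in which GFP is driven by the 11.5kb promoter of s-SHIP, a short form of the phosphatase SHIP1. LSC cells are negative for the lineage markers Ter119, CD31 and CD45 and positive for Sca-1 and CD49f, the fraction that holds basal and stem cells of the prostate. Both populations therefore carried the transgene and passed the same gate, and they differed in whether GFP was detected. GFP also marks vascular smooth muscle cells in these mice, which by the study's text carry little or no Sca-1 and CD49f on their surface, the markers the LSC gate asks for. The number of animals behind each sample is not given in the sources used here.

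Myc, Mycn and Mycl are transcription factors with a basic helix-loop-helix and leucine zipper, which bind DNA as dimers with Max at the E-box CACGTG and raise the transcription of genes for ribosome assembly, nucleolar function and metabolism. The Mxd proteins, Mxi1 and Mnt compete for Max and bring Sin3 and histone deacetylases to the same sites, where they lower transcription, and Mlx is a second, Max-like partner for some of them. Myc is expressed in many dividing tissues, Mycn mainly in embryonic and immature ones. In the human prostate, amplification of MYC is frequent in carcinoma, and that of MYCN is known from a neuroendocrine form.

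Each level given here rests on a probe of 60 bases. The first 30 bases are shown for the 3 probes that passed the test and for the second probe of Mxd1, which did not, because the Mxd1 probes gave different answers. They are written 5′ to 3′ as the array design gives them, with no part in capitals.

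Myc: aacagttgaaacacaaactcgaacagcttc

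Mycn: tgtactaattcctacacggcctgtatactt

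Mxd1, brighter probe: cgcgggtgaagaatgagaagcgcgtttcca

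Mxd1, dimmer probe: gacaccgccattctctgtgctttcattgtt

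In the build mm9 of the array design, the Myc probe lies at chr15:61821417-61821476 on the plus strand and the Mycn probe at chr12:12943193-12943252 on the minus strand. The Mxd1 probes lie on the minus strand at chr6:86597190-86597249 and chr6:86599053-86599112, with 1803 bases between them. The exon or untranslated region that each probe covers was not looked up, as no mm9 annotation was used here. The Mxd4 probes overlap by 13 bases, shown in capitals at the end of the brighter probe and the start of the dimmer one.

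Mxd4, brighter probe, last 30 bases: atcattccagaagtattAAATATCATTTCT

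Mxd4, dimmer probe, first 30 bases: AAATATCATTTCTacaaatctcggcaggat

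These probes lie at chr5:34519323-34519382 and chr5:34519276-34519335 on the minus strand of mm9. They therefore read neighbouring parts of the same transcript, and their answers are given apart.

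Since the network's proteins share the E-box CACGTG, its letters were searched for on both strands of the promoter windows in a RefSeq table of GRCm38.p6, from 250 bases before to 50 after each start. The table held windows for 9 of the 10 members, all but Myc. The motif was in a window of 4 of the 9, Max, Mlx, Mnt and Mxd4, and in 7.15% of all 32851 windows or 8.09% of all 27025 genes. The motif is in capitals below, with 12 bases on either side.

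Max: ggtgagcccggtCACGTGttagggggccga

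Mlx: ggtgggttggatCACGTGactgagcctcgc

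Mnt: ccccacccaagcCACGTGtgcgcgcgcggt

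Mxd4: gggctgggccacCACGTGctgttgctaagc

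In GRCm38.p6 these stretches are chr12:76962234-76962263 on the minus strand for Max, chr11:101087238-101087267 on the plus strand for Mlx, chr11:74830789-74830818 on the plus strand for Mnt and chr5:34187912-34187941 on the minus strand for Mxd4. The Max motif spans the annotated start, and 34, 117 and 213 bases lie between the motif and the start of Mlx, Mnt and Mxd4. None of these 4 genes passed the test between the populations, as described below. A match of letters is a description of the window, and binding was not measured.

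RNA of each sample was amplified, labeled with Cy3 and hybridised to 1 array, and all 6 arrays were on the same slide and in the same scan. Levels are log2 signals minus the 75th percentile of the array, so a level of 0 is that percentile, and levels of different probes are not comparable. Between 36651 and 42123 probes of an array were well above background, and no probe spot was saturated. Ly6a, which encodes Sca-1, differed by -0.36 on the log2 scale (limma, unadjusted p = 0.458) and Itga6, which encodes CD49f, by 0.25 (unadjusted p = 0.289), while Inpp5d, the gene of SHIP1, did not rise above background on any array. Gapdh differed by 0.04. A gene was called at an unadjusted limma p under 0.05 at its brightest probe, the threshold of the study's methods. Samples with the same replicate number deviated together, so limma was also fitted with a block for the replicate number, and its calls are given where they differ. Nothing in the labels ties the samples to separate animals, so p values measure the spread between these samples.

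Myc was higher in LSC GFP+ cells. Its levels were 1.85, 2.04 and 1.72 in LSC GFP+ replicates 1, 2 and 3 and 1.05, 0.83 and 0.99 in the LSC GFP- replicates. All LSC GFP+ levels lay above all LSC GFP- levels. The means were 1.87 ± 0.158 and 0.95 ± 0.115 (s.d., n = 3 each). The difference of 0.92 (SE 0.19, 95% interval 0.47 to 1.36), or 1.89-fold, had a limma p of 0.00145 and an adjusted p of 0.163. It was positive in each replicate pair, at 0.80, 1.21 and 0.74. The 2 spots of the Myc probe differed by at most 0.11 on any array. In RNA of sorted cells, fewer cells with a transcript and less transcript per cell cannot be told apart.

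Mycn, the paralog better known from immature tissues, was lower in LSC GFP+ cells. Its levels were -1.0, -0.95 and -0.73 in the LSC GFP+ replicates and 0.08, -0.03 and 0.20 in the LSC GFP- replicates. Here all LSC GFP+ levels lay below all LSC GFP- levels. The means were -0.90 ± 0.143 and 0.09 ± 0.113 (s.d., n = 3 each). The difference of -0.98 (SE 0.19, 95% interval -1.42 to -0.54), or 1.97-fold lower, had a limma p of 0.000887 and an adjusted p of 0.139. The pairs gave -1.08, -0.93 and -0.93.

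Mycl1, the third transcription factor of the family, did not pass the test. Its levels were -0.32, 0.25 and 0.19 in the LSC GFP+ replicates and -0.51, -0.49 and -0.28 in the LSC GFP- replicates. The populations overlapped, because LSC GFP+ replicate 1 lay under the highest LSC GFP- sample. The difference was 0.47 (SE 0.22, 95% interval -0.05 to 0.98, limma unadjusted p = 0.0700). It passed with replicates as a block (unadjusted p = 0.0348) and without LSC GFP+ replicate 1, at 0.65 (unadjusted p = 0.0153). It passed after normexp background correction too, at 0.39.

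**Figure D1:**
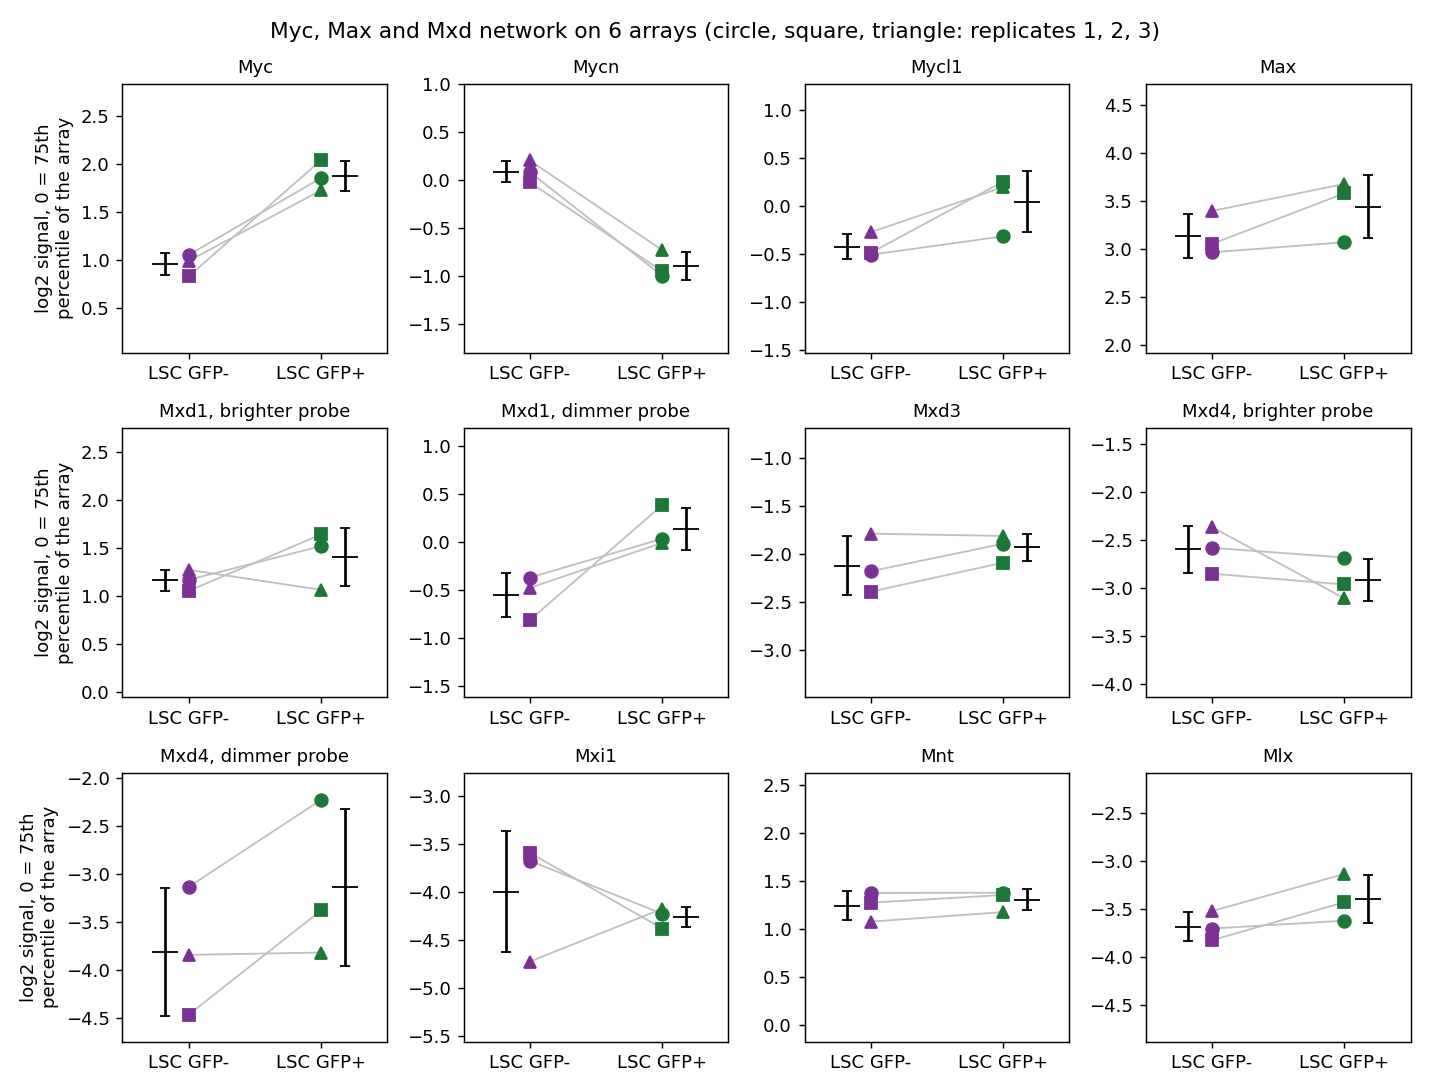
Log2 signal of each of the 12 probes on the 6 arrays, with 0 as the 75th percentile of the array. Purple symbols are LSC GFP- and green symbols LSC GFP+ samples, grey lines join samples of the same replicate number, and black bars are the mean and s.d. of 3 samples. The vertical axes have the same length in every panel but different centres. Myc, Mycn and the dimmer Mxd1 probe show no overlap between the populations.

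The changes of Myc and Mycn ran in opposite directions on the same arrays. The Myc level minus the Mycn level was 2.85, 2.99 and 2.46 in the LSC GFP+ replicates and 0.97, 0.85 and 0.79 in the LSC GFP- replicates. The gap was wider in every LSC GFP+ sample, by 1.90 on average. This quantity was chosen after the values of both genes were seen, and since neither gene overlapped between the populations the gap had to separate them, so it is a description with no test. As levels of different probes, Myc and Mycn cannot be ranked by amount.

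**Figure D2:**
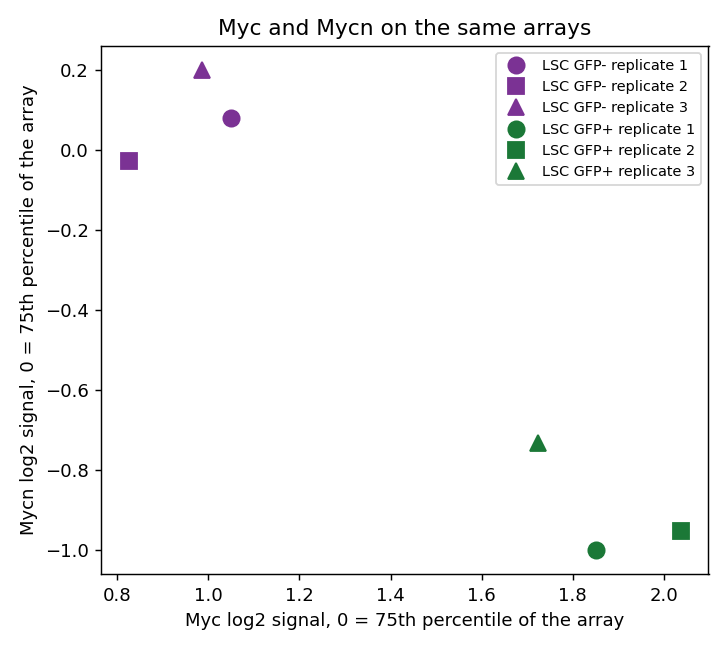
Mycn level against Myc level on each of the 6 arrays, both as log2 signal with 0 as the 75th percentile of the array. Green symbols are LSC GFP+ and purple symbols LSC GFP- samples. The LSC GFP+ samples lie at higher Myc and lower Mycn, with Myc from 1.72 to 2.04 against 0.83 to 1.05.

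Max, the shared dimer partner, did not pass the test. Its levels were 3.07, 3.58 and 3.68 in the LSC GFP+ replicates and 2.97, 3.06 and 3.40 in the LSC GFP- replicates. The populations overlapped at the lowest LSC GFP+ sample. The difference was 0.30 (SE 0.24, 95% interval -0.25 to 0.86, limma unadjusted p = 0.239). Each pair was positive, at 0.10, 0.53 and 0.28.

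Mxd1, a repressor that competes with Myc for Max, gave different answers at its 2 probes. The brighter probe, which stands for the gene in the counts, measured 1.52, 1.64 and 1.06 in the LSC GFP+ replicates and 1.17, 1.05 and 1.27 in the LSC GFP- replicates. These overlapped, and the difference of 0.24 (95% interval -0.26 to 0.75) did not pass the test (limma, unadjusted p = 0.299). The dimmer probe measured 0.03, 0.38 and -0.01 in the LSC GFP+ replicates and -0.37, -0.81 and -0.48 in the LSC GFP- replicates. All LSC GFP+ levels at this probe lay above all LSC GFP- levels. Its difference was 0.69 (SE 0.22, 95% interval 0.19 to 1.19), or 1.61-fold, with a limma p of 0.0133 and an adjusted p of 0.382. That call was lost without LSC GFP+ replicate 2, at 0.57 (unadjusted p = 0.0530), and without LSC GFP- replicate 2, at 0.56 (unadjusted p = 0.0596). The difference between the probes was not tested.

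Mxd3, a member of the same repressor group that is known from dividing cells, measured -1.89, -2.09 and -1.81 in the LSC GFP+ replicates and -2.18, -2.39 and -1.79 in the LSC GFP- replicates. The populations overlapped, with a difference of 0.19 (95% interval -0.33 to 0.70, limma unadjusted p = 0.423).

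Mxd4, a related repressor, had a negative difference at the brighter probe and a positive one at the dimmer, and neither passed the test. The brighter probe measured -2.68, -2.96 and -3.11 in the LSC GFP+ replicates and -2.58, -2.85 and -2.37 in the LSC GFP- replicates, a difference of -0.32 (limma, unadjusted p = 0.185). The dimmer probe measured -2.23, -3.38 and -3.82 against -3.14, -4.47 and -3.84, and was well above background on 3 LSC GFP+ and 2 LSC GFP- arrays. Its samples of one population spread more than those of any other tested member probe, with s.d. of 0.821 and 0.665. The difference there was 0.67 (SE 0.47, 95% interval -0.41 to 1.76, limma unadjusted p = 0.190), and it passed with the replicate block (unadjusted p = 0.0400). It was 0.22 without LSC GFP+ replicate 1, 0.35 without LSC GFP- replicate 2, 1.01 without LSC GFP- replicate 1 and 1.01 without LSC GFP+ replicate 3. The mean over both probes differed by 0.18, against the sign of the brighter one.

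Mxi1, which also represses through Max, was near the background. It was well above background on 2 of 3 arrays in each population and was therefore not tested. Its levels were -4.23, -4.38 and -4.18 in the LSC GFP+ replicates and -3.68, -3.60 and -4.73 in the LSC GFP- replicates. LSC GFP- replicate 3 was the lowest of all 6, and the other LSC GFP- samples were the highest. Without that sample the gene met the filter and differed by -0.63 (limma, unadjusted p = 0.0235). Without LSC GFP+ replicate 2 it also met the filter and differed by -0.20 (unadjusted p = 0.610).

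Mnt, the repressor found in most tissues, was the member with the smallest difference. Its levels were 1.38, 1.35 and 1.18 in the LSC GFP+ replicates and 1.38, 1.27 and 1.08 in the LSC GFP- replicates, so replicates of the same number lay close together. The difference was 0.06 (95% interval -0.38 to 0.50, limma unadjusted p = 0.758), and it was -0.022 without LSC GFP- replicate 3. Mlx, the partner that can take the place of Max, measured -3.63, -3.43 and -3.14 in the LSC GFP+ replicates and -3.71, -3.83 and -3.53 in the LSC GFP- replicates. The populations overlapped, with a difference of 0.29 (95% interval -0.20 to 0.78, limma unadjusted p = 0.208).

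Of the 9 tested members, 1 was called higher at its brightest probe (Myc) and 1 lower (Mycn). Over all genes 3.38% were called higher and 4.29% lower. At the level of probes 2 of 11 were called higher, against 3.38% of all tested probes, and 1 lower, against 4.53%. Together that is 27.3% of the member probes, and the same 27.3% did not overlap between the populations, against 12.3% of all probes. The methods' t-test called 3 member probes as well, against 7.56% of all probes. With the replicate block 5 of 11 member probes passed, or 45.5%, against 14.8% of all probes. The adjusted p values of the member probes lay between 0.139 and 0.996. No member probe passed after Benjamini-Hochberg adjustment in limma, against 0.0027% of all probes, a single one. With so few members these shares describe the set and are no test of it. Of the 9 tested members, 7 had a positive difference at the brightest probe, with a median of 0.24, beside a median of -0.01 over all genes, of which 49.0% were positive. The count of positive members was 7 also under median scaling, quantile normalization and normexp background correction. The median of the members was then 0.31, 0.25 and 0.06, beside 0.06, 0.01 and -0.02 over all genes. Without LSC GFP- replicate 3, 6 of 10 tested members were positive.

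**Figure D3:**
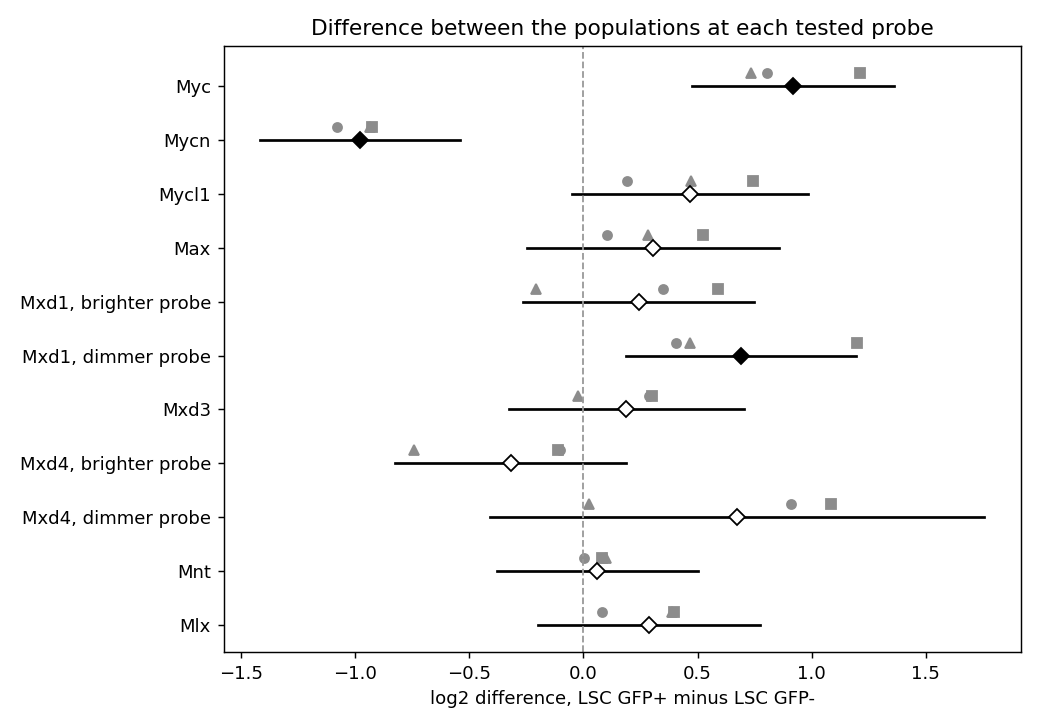
Log2 difference, LSC GFP+ minus LSC GFP-, at each of the 11 tested probes. Diamonds are the differences, filled where the unadjusted limma p was under 0.05, black lines are 95% intervals, and grey symbols are the differences within replicates 1 (circle), 2 (square) and 3 (triangle). The intervals of Myc, Mycn and the dimmer Mxd1 probe do not reach 0.

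Markers of basal, luminal and other cell types were read from the same fit, where 3.38% of all genes were called higher and 4.29% lower. Summed levels here are sums of linear signals in units of the 75th percentile of the array. The 6 smooth muscle markers, such as Acta2 and Myh11, were all called lower in LSC GFP+ cells, with summed levels of 6.21 to 10.0 against 19.6 to 37.7. Of 7 tested stromal markers 5 were called lower, collagens among them, and 2 higher, Dcn and Fbln1, with summed levels of 23.1 to 30.03 against 23.1 to 59.5. Of 8 basal markers 5 were called higher, the keratins Krt5, Krt14 and Krt15 among them, with summed levels of 229 to 247 against 172 to 182. Trp63, which was not called (0.11, limma unadjusted p = 0.577), made up 41.1 to 56.1% of the basal sum on an array. Without Trp63 the basal sums were 115 to 145 against 75.5 to 89.0. The summed levels of 6 luminal markers were 149 to 214 against 160 to 227. None of 4 tested endothelial, 4 immune and 5 glial and neuronal markers was called by limma or by the methods' t-test. With the replicate block, under which 14.2% of all genes passed, 3 of the 5 tested glial and neuronal markers passed. These were Stmn2, Tubb3 and Sox10, with differences of -2.63 (unadjusted p = 0.00667), -1.30 (0.00116) and -0.66 (0.0257). The luminal marker Tspan8 passed as well, at -0.64 (0.0269), and no endothelial or immune marker did. Without LSC GFP- replicate 2, limma called 4 of 7 tested glial and neuronal markers lower. It called 2 of 5 tested endothelial markers lower without LSC GFP- replicate 1 and 1 of 4 without LSC GFP+ replicate 1. The share of all genes called in those fits is not given here. Summed levels were 5.66 to 6.65 against 5.94 to 6.93 for endothelial, 25.3 to 30.5 against 25.7 to 26.4 for immune and 147 to 206 against 170 to 224 for glial and neuronal markers. These 3 sums are set mostly by a single probe each, of Kdr, Csf1r and Snap25. Without it they were 0.241 to 0.430 against 0.343 to 1.21 for endothelial, 1.18 to 1.77 against 1.18 to 1.52 for immune and 1.32 to 9.91 against 2.69 to 35.3 for glial and neuronal markers. No list was at background throughout, and the immune marker Lyz2 did not rise above background on any array. The part of these markers in the differences of Myc and Mycn was not tested. Leaving out any 1 array left all 6 smooth muscle markers called lower, while the basal count fell to 3 without LSC GFP- replicate 1 or 2 or without LSC GFP+ replicate 2 or 3.

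Genes known to be activated by Myc mostly had small positive differences, and a minority passed the test. The list of 31 was written from general knowledge and holds genes of ribosome assembly, nucleolar function, translation and metabolism. Of these, 6 were called higher and none lower, or 19.4% called higher, against 3.38% of all genes. Rrs1, a ribosome assembly factor, was higher by 0.71 (SE 0.21, limma unadjusted p = 0.00969). Dkc1, the pseudouridine synthase dyskerin, was higher by 0.72 (SE 0.22, unadjusted p = 0.0110). Gnl3, the nucleolar protein nucleostemin, was higher by 0.55 (SE 0.18, unadjusted p = 0.0170), a call lost without LSC GFP- replicate 1 or 2 or without LSC GFP+ replicate 2. The other genes called were Srm (0.56), Tfrc (0.46) and Nop2 (0.43), which are named here because they complete the count. None passed after adjustment.

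Of the 31, 29 were positive and the median was 0.36, and 16 had all LSC GFP+ levels above all LSC GFP- levels, as had 6.5% of all genes. The exceptions were Prdx3 at -0.36 and Cad at -0.07. Odc1, the polyamine synthesis enzyme often cited as a Myc target, differed by 0.09 (unadjusted p = 0.649), and Ldha, of lactate metabolism, by 0.04 (unadjusted p = 0.847); both were picked after their values were seen. Between 28 and 30 of the 31 were positive under the other scalings and normexp correction, with medians of 0.31 to 0.43. With the replicate block 16 passed, against 14.2% of all genes, 15 of them higher and Prdx3 lower (unadjusted p = 0.0411). The count called was 2 without LSC GFP- replicate 1, 2 without LSC GFP- replicate 2, 3 without LSC GFP+ replicate 2 and 3 without LSC GFP+ replicate 3.

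Of the genes known to be repressed by Myc, none was called lower in LSC GFP+ cells by limma. Of 8 listed 7 were tested, and 3 were called higher, or 42.9%, against 3.38% of all genes. Ndrg2, which restrains growth in several tissues, was higher by 0.85 (SE 0.20, limma unadjusted p = 0.00319). Cebpa, a transcription factor of differentiation, was higher by 0.85 (SE 0.21, unadjusted p = 0.00390). Gadd45a, a gene of growth arrest and DNA damage, was higher by 0.63 (SE 0.19, unadjusted p = 0.0112), a call lost without LSC GFP- replicate 2. The inhibitors of cyclin-dependent kinases in the list were not called, with 0.21 for Cdkn1a and -0.29 for Cdkn1b, and Cdkn2b was not tested. The LSC GFP+ levels of Cdkn1b all lay below the LSC GFP- levels, and the methods' t-test called it lower beside the same 3 genes higher, 4 of 7 against 7.5% of all genes. The median of the 7 was 0.42. It was 0.48 under median scaling, 0.45 under quantile normalization and 0.19 after normexp correction.

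Partners of the network were tested in a list of 19 genes, which holds the Mlx partners Mlxip and Mlxipl, the Max partner Mga, the acetyltransferase complexes that Myc brings in, and the Sin3, deacetylase and Ncor1 corepressors of the Mxd proteins. None was called by limma at an unadjusted p under 0.05, with differences from -0.17 to 0.37 and a median of 0.17. The methods' t-test called 3 of the 19, against 7.5% of all genes. With the replicate block Mga (0.37, unadjusted p = 0.0348), the acetyltransferase Kat2a (0.36, unadjusted p = 0.0423) and the deacetylase Hdac2 (0.36, unadjusted p = 0.0420) passed, 3 of 19 where 14.2% of all genes did. Genes that control the stability of the Myc protein were tested in a list of 13. Only Fbxw7, the F-box protein that marks Myc for degradation, was called, higher by 0.65 (SE 0.22, limma unadjusted p = 0.0182). It was not called without LSC GFP+ replicate 2, at 0.56 (unadjusted p = 0.0653), or without LSC GFP- replicate 3, at 0.49 (unadjusted p = 0.0665). Without LSC GFP+ replicate 3 the list held 2 calls. With the replicate block Btrc, a ubiquitin ligase subunit, passed as well, at 0.41, with an unadjusted p just under 0.05. These are 1 and 2 of 13, beside 3.38% of all genes called higher and 14.2% passing with the block. The median of the 13 was 0.13.

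Cell cycle genes stood beside the Myc-activated ones. All 9 tested of 10 listed had a positive difference, from 0.18 to 0.54, with a median of 0.28. Only Top2a, the topoisomerase of dividing cells, was called, higher by 0.54 (SE 0.19, limma unadjusted p = 0.0216). The call was lost without replicate 2 of either population, at 0.54 (unadjusted p = 0.0550) without the LSC GFP+ and at 0.45 (unadjusted p = 0.0919) without the LSC GFP- sample, and the list then held none. It held 3 calls without LSC GFP+ replicate 1 and 3 without LSC GFP- replicate 3, and with the replicate block Ccnb1 (unadjusted p = 0.0181), Mcm5 (0.0342) and Bub1 (0.0370) passed beside Top2a. These are 1 and 4 of 9, beside 3.38% of all genes called higher and 14.2% passing with the block.

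**Figure D4:**
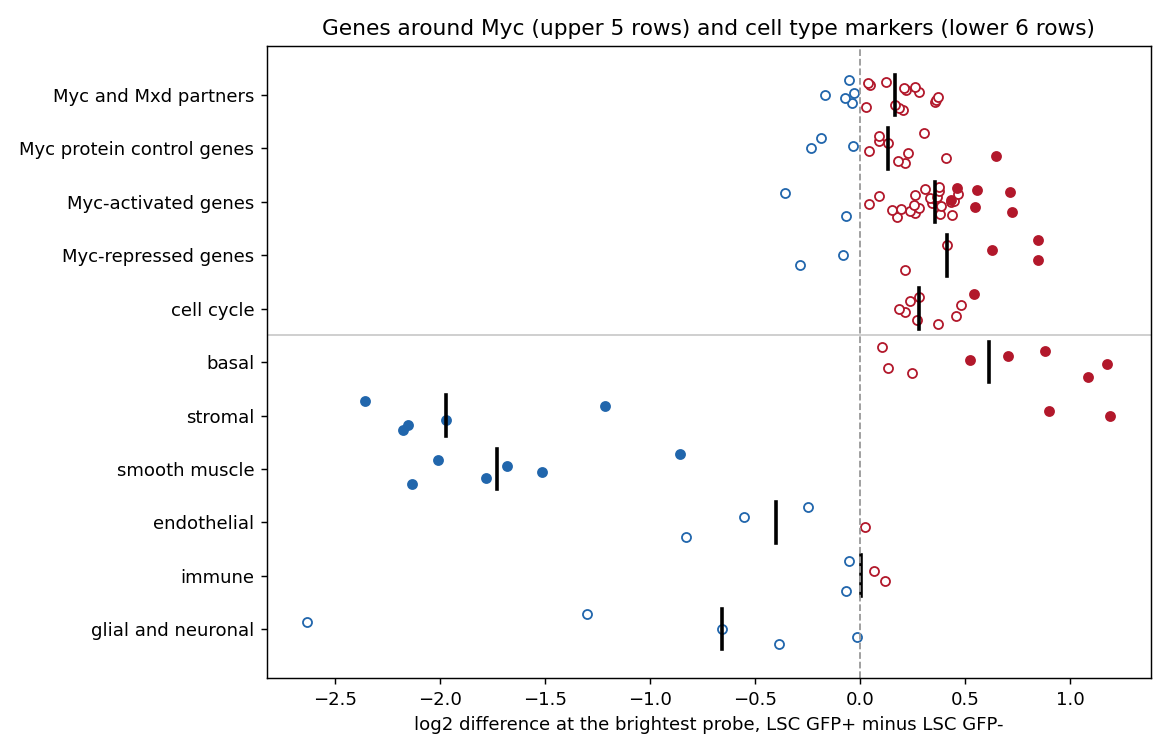
Log2 difference, LSC GFP+ minus LSC GFP-, of each tested gene at its brightest probe, for the lists around Myc above the grey line and for cell type markers below it. Points are genes, red if positive and blue if negative, filled where the unadjusted limma p was under 0.05, and black bars are medians of the lists. The Myc-activated genes lie mostly right of 0 (median 0.36), and the smooth muscle markers all lie left of it (median -1.73).

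The genes whose levels over the 6 arrays were most like those of Myc were found by the root mean square difference of mean-centred log2 levels, over 23775 genes above background on all arrays. They were Dipk2a (0.06), Hoxd13 (0.07), Dusp6 (0.08), Megf9 (0.08) and Pdgfc (0.09), on the log2 scale. Dusp6 encodes a phosphatase of the kinase ERK, Hoxd13 a homeobox factor and Pdgfc a growth factor. Their differences between the populations were 0.98, 1.05, 1.01, 0.91 and 1.02. Hoxd13 measured 3.81, 3.93 and 3.66 in the LSC GFP+ replicates and 2.90, 2.61 and 2.76 in the LSC GFP- replicates. Like Myc it was highest in LSC GFP+ replicate 2 and lowest in LSC GFP- replicate 2. These genes were picked by their likeness to Myc on the same arrays. Their similar differences and order therefore largely follow from the choice and are no test. For Mycn, added after its values were seen, the nearest gene was Nedd4l (0.07), a ubiquitin ligase, with levels of -2.05, -2.01 and -1.69 against -1.10, -1.02 and -0.82. Next came Vcam1 and Ubash3b, both at 0.12.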

How the data were processed

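Gene expression was measured on 6 single-colour SurePrint G3 Mouse GE arrays. The deposited scanner files hold intensity values per spot on the linear scale, made by the authors with Feature Extraction 11.0.1.1 per the file headers, with background subtracted and without normalization between arrays; the submitters' processing notes name version 10.7.3.1. Processed signals were log2 transformed and scaled by subtracting each array's 75th percentile; outlier spots (123 to 154 per array) were dropped and the spots of each probe averaged. The test covered 37005 probes, those marked well above background on every array of one population or of both. LSC GFP+ was set against LSC GFP- with limma 3.58.1 (lmFit, eBayes; R 4.3.3), two-sided, and p values were adjusted over all tested probes by Benjamini-Hochberg. The study's methods name Student's test without correction, and this was run as an alternative, called the methods' t-test. Unless called adjusted, a p is unadjusted. A gene is represented by its brightest tested probe.

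The number of arrays limits the precision. The fit was tested on simulated data before use, in which 200 of 36990 probes were changed by 1 on the log2 scale. Of these, 89% were found at an unadjusted limma p under 0.05, and 89.5% with the block. None passed after adjustment, with or without the block, and 5.44% of the unchanged probes were called unadjusted. In that simulation, a change of this size did not pass adjustment. Deviations from the population means correlated across probes at 0.43, 0.28 and 0.67 for samples sharing replicate number 1, 2 and 3. For samples of unlike number the correlations ran from -0.55 to 0.22. The numbers in the labels were therefore taken to pair the samples.

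The members and lists were chosen with earlier results of these data known, and the lists were written from general knowledge. The text names all members, up to 3 called genes per direction of each list, the 5 genes most like Myc, Ly6a, Itga6, Inpp5d and Gapdh, beside markers and genes marked where they appear. Probes were matched to symbols by RefSeq accession in a table of GRCm38.p6 (26582 matched), and the others kept the symbol of the array design. Alternatives were another background correction (normexp, offset 50), median and quantile scaling, the rounded values of the series table, 3 filters on dim probes, outlier spots kept, the methods' t-test, an intensity trend, the replicate block, averaging all probes per gene, and each array left out. Single markers of the luminal and immune lists are not all reported here.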

Additional observations from a re-analysis of the deposited data

How the results depend on the processing

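Myc stayed higher and Mycn lower in LSC GFP+ cells, both past an unadjusted p of 0.05, under all 18 alternatives, from 0.83 to 0.99 for Myc and from -1.06 to -0.80 for Mycn. The number of network members called was 2 or 3, and that of Myc-repressed genes was 2 to 4, with the 1 lower call from the methods' t-test. The number of Myc-activated genes called, 6, became 13 with normexp correction, 12 with the methods' t-test, 10 with an intensity trend and 16 with the replicate block, and ranged from 2 to 7 as single arrays were left out. The number of partners called, 0, became 1 with normexp correction, 3 with the methods' t-test and 3 with the replicate block. The number of Myc protein control genes called, 1, became 2 with the methods' t-test and 2 with the replicate block, and ranged from 0 to 2 as single arrays were left out. Over all genes the methods' t-test called 7.5% and the replicate block 14.2%. The shares of all genes called under the other alternatives are not given here, so the counts of the lists there cannot be set against them. Mycl1 passed in 3 of 18 alternatives, and Max, Mxd1, Mxd3, Mxd4, Mnt and Mlx in none at the brightest probe. The sign turned for Mxd4 with the mean over its probes, at 0.18, and for Mnt without LSC GFP- replicate 3, where values ran from -0.022 to 0.13 as single arrays were left out. The causes were not tested. Beside the calls given above, the replicate block changed no other call among the members. Median scaling moved the median of all tested probes by 0.07 and quantile normalization moved it by 0.02 on the log2 scale, both under 0.1. Members near the background, Mxi1, Mlx and the dimmer Mxd4 probe, are limited by their low signal.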
